A study of Homo sapiens with 9 samples.

Results

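The genes described here are the protein-coding genes for nuclear-encoded subunits of the respiratory chain, taken by name: NDUFA, NDUFB, NDUFC, NDUFS and NDUFV genes for complex I, SDHA to SDHD for complex II, UQCR genes for complex III, COX4 to COX8 genes for complex IV and ATP5 genes for complex V. The rule takes 90 of the 58735 genes listed, with 39 in complex I, 4 in complex II, 9 in complex III, 17 in complex IV and 21 in complex V. It uses names alone, so it also takes NDUFA4, a complex IV subunit counted here in complex I, and the ATP synthase inhibitor ATP5IF1. It further takes the readthrough genes NDUFC2-KCTD14 and ATP5MF-PTCD1, and UQCRHL, ATP5MGL, NDUFA4L2, COX7A2L and ATP5S, which are outside the accepted set of subunits. It leaves out the subunits CYC1 and NDUFAB1 and the electron carrier CYCS. Of the 90 genes, 87 had a count in at least 1 library and 82 passed the filter on low counts and were tested, next to 18319 genes tested in all.

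The samples are HEK293T cells, a human embryonic kidney line with the SV40 large T antigen, profiled by poly(A)-selected RNA sequencing. All groups, DMSO included, are of the PRPS1-HA-dTAG/PRPSAP1-V5-BromoTag line, in which each of these proteins carries a tag that lets a compound mark it for degradation. PRPS1 makes phosphoribosyl pyrophosphate, the sugar donor of nucleotide and NAD synthesis, and PRPSAP1 is a protein associated with it. Each group has 3 libraries: dTAG47, which recruits the ligase receptor CRBN to the dTAG on PRPS1, AGB1, which recruits VHL to the BromoTag on PRPSAP1, and DMSO, the solvent. The compounds were used at 500 nM for 24 h. The sources used here do not say whether the line is 1 clone or whether a group's libraries are separate cultures. The p-values thus measure a spread between libraries that may be technical.

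Complexes I to IV pass electrons from NADH and succinate to oxygen and, except for complex II, pump protons across the inner mitochondrial membrane. Complex V, the ATP synthase, uses the proton gradient to make ATP. Most subunits are encoded in the nucleus and imported, and they assemble with a small set encoded by mitochondrial DNA, so that both genomes contribute to complexes I, III, IV and V. Many of the nuclear genes are known to have GC-rich promoters with sites for the transcription factors NRF1, GABP (DNA-binding subunit GABPA) and YY1.

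RefSeq promoters (build GRCh38.p14, 250 bases before to 50 bases after the annotated start) were matched for 71 of the 90 genes, 67 of them among those tested. The letters searched on both strands were GCGCA, any base, then GCGC for NRF1, CCGGAAG for GABPA and ATGGCGG for YY1. The YY1 letters contain a start codon, and their last letters overlap those of GGGCGG, the core of an SP1 site. The promoters shown are in lower case, 5′ to 3′ on the strand of the gene, with each match to these motifs in capitals. SDHD holds all of them, UQCRC1 and UQCR10 pair an NRF1 with a YY1 match, and COX6A1 and COX6A2 are the expressed and the silent gene for the same subunit.
SDHD, chr11:112086623-112086922, plus strand: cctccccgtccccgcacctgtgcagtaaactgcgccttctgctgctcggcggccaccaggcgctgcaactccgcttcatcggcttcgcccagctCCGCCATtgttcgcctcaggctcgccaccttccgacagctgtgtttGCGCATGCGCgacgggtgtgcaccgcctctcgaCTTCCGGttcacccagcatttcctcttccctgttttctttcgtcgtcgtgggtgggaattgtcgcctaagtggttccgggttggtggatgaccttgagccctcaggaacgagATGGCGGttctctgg
UQCRC1, chr3:48609597-48609896, minus strand: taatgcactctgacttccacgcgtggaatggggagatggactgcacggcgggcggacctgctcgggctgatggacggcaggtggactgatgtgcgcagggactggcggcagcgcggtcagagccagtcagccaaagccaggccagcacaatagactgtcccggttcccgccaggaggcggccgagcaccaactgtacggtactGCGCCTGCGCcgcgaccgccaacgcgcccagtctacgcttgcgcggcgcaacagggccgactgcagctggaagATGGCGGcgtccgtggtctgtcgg
UQCR10, chr22:29767119-29767418, plus strand: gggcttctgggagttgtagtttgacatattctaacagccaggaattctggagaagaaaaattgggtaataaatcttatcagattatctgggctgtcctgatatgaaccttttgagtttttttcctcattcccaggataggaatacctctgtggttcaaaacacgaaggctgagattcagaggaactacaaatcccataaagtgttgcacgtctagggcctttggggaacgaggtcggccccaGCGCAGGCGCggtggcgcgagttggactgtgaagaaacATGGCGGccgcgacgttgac
COX6A1, chr12:120437863-120438162, plus strand: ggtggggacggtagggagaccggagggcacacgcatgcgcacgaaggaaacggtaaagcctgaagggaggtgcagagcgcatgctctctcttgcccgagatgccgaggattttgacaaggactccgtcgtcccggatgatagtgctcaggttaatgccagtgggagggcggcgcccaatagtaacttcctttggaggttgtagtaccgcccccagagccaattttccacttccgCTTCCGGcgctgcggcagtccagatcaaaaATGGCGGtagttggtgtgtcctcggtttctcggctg
COX6A2, chr16:31428311-31428610, minus strand: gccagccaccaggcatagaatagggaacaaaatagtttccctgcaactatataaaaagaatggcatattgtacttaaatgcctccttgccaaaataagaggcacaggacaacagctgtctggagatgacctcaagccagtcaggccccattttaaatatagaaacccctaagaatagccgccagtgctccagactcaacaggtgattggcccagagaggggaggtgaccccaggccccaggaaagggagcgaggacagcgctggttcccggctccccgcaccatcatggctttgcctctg

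In the SDHD promoter the NRF1 match begins 110 bases before the start and the GABPA match 77 bases before it. The NRF1 match of UQCRC1 begins 47 bases before the start, that of UQCR10 8 bases before it, and the GABPA match of COX6A1 16 bases before it. Among the 67 tested genes with a promoter, 16 (23.9%) held the NRF1 letters, against 11.2% of 11328 tested protein-coding genes and 6.28% of all 27305 promoters in the table. The YY1 letters stood in 19 (28.4%), against 9.72% and 5.72%. The GABPA letters stood in 20 (29.9%), against 17.9% and 10.7%. The SP1 core GGGCGG was in 42 (62.7%), against 70.1% of tested protein-coding genes, and CCAAT was in 34.3%, against 36.4%. The median GC content of the 67 promoters was 61%, below the 65.3% of tested protein-coding genes and above the 58.3% of all promoters. Of the 4 promoters of subunit genes too low to be tested, 1 (25%) held the NRF1 letters, 0 the GABPA and 0 the YY1 letters. COX7C, the gene at the highest level per kilobase in complex IV, held none of these letters. The COX6A1 and COX6A2 promoters are thus single examples and do not show that the letters separate expressed from silent genes. A match describes the letters only, and the shares were not tested. No comparison called the mRNA of any of these factors: NRF1 averaged 31.3 CPM over the 9 libraries, GABPA 85.3 CPM and YY1 235 CPM, where CPM is a gene's count scaled to the library size after TMM normalization.

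Libraries held between 27964128 and 44803380 counts, and 3 counts correspond to between 0.0670 and 0.107 CPM. The epithelial keratins KRT18 (52.0 CPM) and KRT8 (31.4 CPM) and the neurofilament gene NEFM (193 CPM) were expressed. The epithelial genes CDH1 and EPCAM and the kidney gene PAX2 were low (7.21, 2.13 and 1.37 CPM). Of the markers of other cell types, COL1A1 was at 27.0 CPM. Those of blood, liver, endothelium, heart and skeletal muscle were at most 0.32 CPM on average. NEFL and COL3A1, chosen as markers along with NEFM and COL1A1, are not reported here. KRT8 was at 27.1, 25.8 and 29.4 CPM with AGB1, against 32.3, 35.3 and 32.2 CPM in DMSO, and did not pass the threshold; its part in the results was not tested. The 2 libraries that stood furthest apart in GC content were dTAG47 1 and DMSO 1, in which Spearman's rho across genes between a gene's deviation from its mean and its transcript GC was 0.37 and −0.21. PRPS1 mRNA averaged 107 CPM and PRPSAP1 29.4 CPM, neither passed the threshold, and since the compounds act on the proteins these levels do not check the depletion. In bulk RNA, fewer cells of a type and less RNA per cell cannot be told apart.

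The 90 genes together took between 0.938% and 1.02% of all counts in a library. Their summed level was 9692 to 9859 CPM in the dTAG47 libraries, 10083 to 10209 CPM in the AGB1 libraries and 9344 to 10249 CPM in the DMSO libraries. The dTAG47 and AGB1 libraries did not overlap, but both lay within the range of DMSO, in which replicate 1 was lowest and replicate 3 highest. Complex V had the highest sum, 3804 ± 81.6 CPM with dTAG47, 3989.9 ± 23.9 CPM with AGB1 and 3846 ± 172 CPM in DMSO (SD, n = 3 each). Complex I, with more genes, summed to 2688 ± 30.6 CPM with dTAG47, 2759 ± 45.4 CPM with AGB1 and 2687 ± 129 CPM in DMSO. Complex II held 598 ± 3.31 CPM with dTAG47, 603 ± 10.4 CPM with AGB1 and 591 ± 10.02 CPM in DMSO. For complexes III, IV and V every dTAG47 library was below every AGB1 library, and for all 5 complexes the lowest library was DMSO 1.

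**Figure D1:**
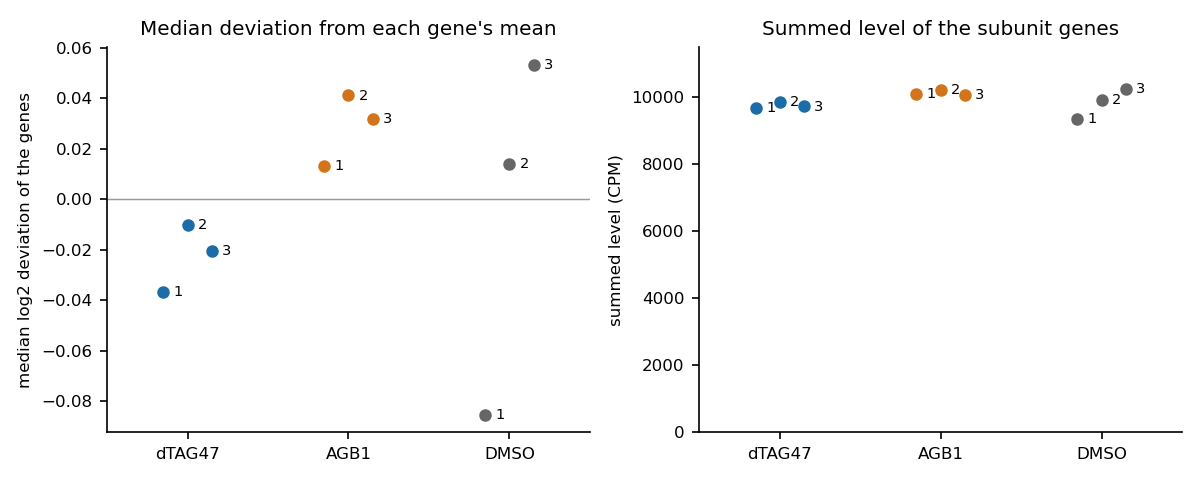
Left, median log2 deviation of the 82 tested subunit genes from each gene's mean over the 9 libraries; right, summed level in CPM of all 90 genes. Points are single libraries, labelled with the replicate number, in the order dTAG47, AGB1, DMSO: the dTAG47 medians lie between −0.037 and −0.010, the AGB1 medians between 0.013 and 0.041, and the DMSO medians range wider, from −0.085 to 0.053.

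Among single genes, levels can be compared only per length. Per kilobase of the union of exons, ATP5F1B, the catalytic beta subunit of ATP synthase, was highest at 576 CPM per kilobase. NDUFS5 led complex I (286 CPM per kilobase), COX7C complex IV (163), UQCRH, the hinge protein of complex III, its complex (131) and SDHB, the iron-sulfur subunit, complex II (49.3). The union of exons takes in every annotated transcript, used or not. With the median length of coding transcripts in its place, a choice made after seeing the data, ATP5F1B and COX7C still led their complexes, whereas NDUFV1, SDHC and UQCRC2 led complexes I, II and III. SDHC had the lowest level of complex II by the first measure, 13.9 CPM per kilobase, against 427 by the other. At the low end NDUFV2, a core subunit of complex I, was listed at 0.08 to 0.79 CPM over the 9 libraries, although the core subunits NDUFV1 and NDUFS1 stood above 180 CPM. In NDUFV2, 38.7% of 75-base words also occur in the overlapping transcript AP005263.1, which had no counts.

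Shared sequence was found in genes at low and at high levels. COX6A1 shared 37.1% of its words with other genes at 56.9 to 65.9 CPM, COX8A 23.6% at 52.9 to 76.2 CPM, and UQCRH, the highest of complex III by the union of exons, 19.6% at 175 to 191 CPM. NDUFA7 (72.5% of words shared with the overlapping gene AC010323.1) was at 0.58 to 1.30 CPM, and NDUFA13 (21.9% shared with AC011448.1) was at 1.36 to 3.72 CPM. NDUFB8 (60.8% with AL133352.1) was at 13.0 to 18.1 CPM and ATP5PO, a stalk subunit of ATP synthase (61.7% with AP000311.1), at 35.1 to 43.7 CPM. On the opposite strand, 61.6% of the exonic bases of ATP5ME overlap MYL5, 49.1% of those of NDUFS7 overlap AC005329.1 and 23.1% of those of ATP5PF overlap GABPA; whether reads were counted by strand is not stated. The counts of these genes are uncertain to that extent, and the part of shared sequence in their levels was not tested. For NDUFA13, in which AC011448.1 held 28.0% of the summed count, and NDUFA7, in which AC010323.1 held 7.44%, adding the counts of the overlapping gene gave no call. The log2 fold change of NDUFA13 moved from 0.09 to 0.26 with dTAG47, and from −0.03 to 0.13, the other sign, with AGB1. That of NDUFA7 moved from −0.34 to −0.29 and from 0.17 to 0.14. The overlapping transcripts of NDUFV2, NDUFB8 and ATP5PO had no counts to add.

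Where a subunit has a broadly expressed and a tissue-restricted isoform, the mRNA of the broad one was the more abundant. COX4I1 was at 291 to 323 CPM, while COX4I2, known from lung, had 5 counts in DMSO 1 and 0 in the other 8 libraries. COX6A1 was at 56.9 to 65.9 CPM, and COX6A2, the isoform of heart and skeletal muscle, had 0 counts in all 9 libraries. COX7A2 was at 48.4 to 58.2 CPM, and COX7A1, also a muscle isoform, did not exceed 0.82 CPM. COX8A (52.9 to 76.2 CPM) stood against COX8C (at most 0.39 CPM), COX7B (105 to 147 CPM) against COX7B2 (0 counts) and COX6B1 (113 to 126 CPM) against COX6B2 (0.14 to 0.84 CPM); COX8C, COX7B2 and COX6B2 are known from testis. NDUFA4 was at 152 to 181 CPM and the hypoxia-induced NDUFA4L2 at 1.04 to 2.41 CPM. Per kilobase, the broad genes averaged from 27.6 CPM (COX7A2) to 132 CPM (COX8A), and the restricted ones at most 0.56 CPM (NDUFA4L2). No treatment brought a restricted isoform into the range of its broad one. Per kilobase of the union of exons, the 3 genes that encode the same c subunit of the ATP synthase ring were close. ATP5MC3 was at 46.9 CPM per kilobase, ATP5MC2 at 52.0 and ATP5MC1 at 40.7. Their total counts were 98395, 63990 and 32871, so the likeness depends on the length used. The unions are 6780, 3991 and 2615 bases long, and the median coding transcripts 842, 811.5 and 503.5 bases. COX4I2, COX6A2, COX7A1, COX7B2, COX8C, ATP5MF-PTCD1, ATP5MGL and NDUFC2-KCTD14 are the 8 genes that were not tested.

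**Figure D2:**
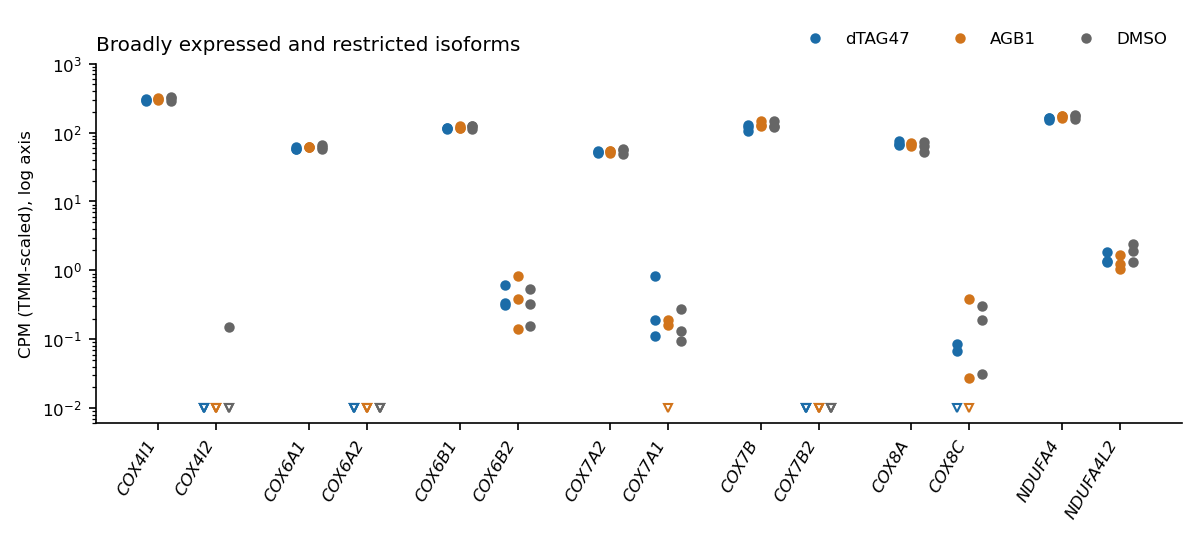
Level in CPM (log axis) of 7 broadly expressed genes and their restricted counterparts in every library, with dTAG47, AGB1 and DMSO from left to right; open triangles at the bottom mark libraries with 0 counts. Each broad gene lies above 40 CPM and each restricted gene below 3 CPM in all 9 libraries.

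The first question of the design is how cells respond to depletion of PRPS1. With dTAG47 the subunit genes stayed close to DMSO. None of the 82 passed the threshold of an adjusted p under 0.05 in edgeR's quasi-likelihood test, where 0.0600% of all 18319 genes did; DESeq2 and limma-voom also called 0. At an unadjusted p under 0.05 there were 2 higher (NDUFV3 and ATP5MG), where 3.65% of all genes were, and 2 lower (NDUFB6 and UQCRB), where 3.62% were; in either direction it was 7.28% of all genes. The median log2 fold change was −0.01, with 36 of 82 above 0, and for all genes it was −0.00097, with 49.7% above 0. By complex the medians were −0.0014 for complex I, 0.02 for complex II, −0.02 for complex III, −0.04 for complex IV and −0.02 for complex V. Without DMSO 1 the median of all 82 was −0.05 and that of complex IV −0.09, and without DMSO 3 the median of all 82 was 0.02, so the sign rests on the DMSO libraries.

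The precision of single genes bounds what a change could have been. Of the 77 tested genes with a mean of at least 5 CPM, 76 had a 95% interval inside ±0.5 on the log2 scale with dTAG47, as they did with AGB1 and between the compounds, and the median half-width was 0.15 in each. The exception in all 3 was UQCRHL, a hinge-like gene that shares words with UQCRH, at 4.69 to 5.96 CPM with dTAG47, 5.41 to 7.80 CPM with AGB1 and 5.25 to 9.54 CPM in DMSO.

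NDUFV3, an accessory subunit of the NADH-oxidising arm of complex I (chromosome 21, 42879644 to 42913304, plus strand, GRCh38), was the only subunit gene higher in every dTAG47 library than in every DMSO library, where 5.80% of all genes were. Its levels were 76.2, 70.5 and 72.2 CPM with dTAG47, 75.8, 76.1 and 73.3 CPM with AGB1 and 59.99, 68.5 and 63.6 CPM in DMSO. Both treated groups lay above DMSO. With dTAG47 its log2 fold change was 0.19 (95% interval 0.04 to 0.33, edgeR adjusted p = 0.540). With AGB1 it was 0.23 (0.08 to 0.38, adjusted p = 0.321), so it did not pass in either, and both comparisons use the same DMSO libraries.

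NDUFB6, an accessory subunit of the membrane arm of complex I, was the only one lower in every dTAG47 library, where 5.82% of all genes were. It was at 80.5, 79.2 and 74.3 CPM with dTAG47, against 83.7, 84.1 and 93.3 CPM in DMSO, a log2 fold change of −0.16 (95% interval −0.30 to −0.01, adjusted p = 0.644). With the GC trend removed the groups of NDUFB6 overlapped. ATP5MG, a membrane subunit of ATP synthase, had the highest value in complex V, 0.25 (0.02 to 0.48, adjusted p = 0.645). It stood at 28.9, 32.9 and 28.1 CPM with dTAG47, against 20.3, 28.98 and 26.3 CPM in DMSO, and the low value of DMSO 1 was apart from the other two; without DMSO 1 the fold change was 0.12. UQCRB, a complex III subunit, had −0.13 (adjusted p = 0.646) with overlapping libraries. Among genes with a mean of at least 5 CPM, NDUFA3 (−0.18), SDHD (−0.05), UQCRHL (−0.39), COX7B (−0.14) and ATP5S (−0.14) had the lowest values of complexes I to V. SDHB (0.05), UQCRC1 (0.06) and COX8A (0.16) had the highest of complexes II, III and IV. None of these passed, and single libraries carried much of most of them. Without DMSO 2, UQCRHL had −0.12, COX7B −0.05 and COX8A 0.05, and without DMSO 1 ATP5S had −0.06 and SDHB 0.02. NDUFA3 had −0.08 without dTAG47 3, and UQCRC1 −0.0093 without dTAG47 1.

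The second question concerns depletion of PRPSAP1. With AGB1 none of the 82 genes passed the threshold either, where 0.104% of all genes did, and DESeq2 and limma-voom called 0. At an unadjusted p under 0.05 there were 5 higher (NDUFV3, NDUFB10, COX5A, ATP5F1E and ATP5MC2), where 3.55% of all genes were, and 1 lower (NDUFA8), where 4.21% were; in either direction it was 7.76%. The median log2 fold change was 0.04, with 52 of 82 above 0, beside a median of −0.00092 and 49.7% above 0 for all genes. Complex medians were 0.04 for complex I, 0.02 for complex II, 0.05 for complex III, 0.03 for complex IV and 0.06 for complex V. The median of the 82 was 0.0086 without DMSO 1 and 0.07 without DMSO 3, and that of complex IV was −0.02 without DMSO 1.

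In 9 genes every AGB1 library was above every DMSO library, where 6.56% of all genes were, and in 2 every one was below, where 6.75% were. The 9 were NDUFV3, NDUFA10, NDUFS3 and NDUFS4 of complex I, the membrane anchor SDHC of complex II, UQCR10 of complex III, COX5A of complex IV, and ATP5F1E and ATP5MC2 of complex V. COX5A was at 157, 146 and 147 CPM with AGB1, against 127, 130.3 and 142 CPM in DMSO, a log2 fold change of 0.17 (95% interval 0.05 to 0.30, edgeR adjusted p = 0.388). ATP5F1E, the epsilon subunit of ATP synthase, was at 107, 123 and 110.4 CPM with AGB1, against 90.1, 105 and 102 CPM in DMSO. Its fold change was 0.20 (0.04 to 0.36, adjusted p = 0.511). ATP5MC2 was at 215, 213 and 225 CPM with AGB1, against 193, 195 and 206 CPM in DMSO, with a fold change of 0.14 (adjusted p = 0.545).

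After NDUFV3, COX5A, ATP5F1E and ATP5MC2, the other genes of this set had log2 fold changes of 0.11 or less. NDUFS3, a core subunit, was at 93.4, 94.3 and 94.1 CPM with AGB1, against 85.6, 85.4 and 89.9 CPM in DMSO (0.11, adjusted p = 0.706). NDUFS4, an accessory subunit of the NADH-oxidising arm, was at 33.7, 36.8 and 34.6 CPM with AGB1, against 32.3, 33.0 and 32.9 CPM in DMSO (0.10, adjusted p = 0.843). UQCR10, whose promoter is printed above, was at 111, 119 and 115 CPM with AGB1, against 108, 103 and 108 CPM in DMSO (0.11, adjusted p = 0.711). In each the gap between the groups was smaller than the range within the wider of them. Among genes with a mean of at least 5 CPM, UQCRQ (0.12) and ATP5ME (0.20) had the highest values of complexes III and V with overlapping libraries, and COX7A2 (−0.04) and ATP5PO (−0.06) the lowest of complexes IV and V. The value of UQCRQ was 0.05 without DMSO 1, and that of ATP5ME 0.07 without AGB1 3.

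NDUFB10, an accessory subunit of the membrane arm named after its values were seen, was at 164, 149.7 and 162 CPM with AGB1, against 128, 134 and 152 CPM in DMSO. The lowest AGB1 library was below DMSO 3. The log2 fold change was 0.20 (95% interval 0.07 to 0.33, edgeR adjusted p = 0.362). NDUFB10 was the 1 subunit gene to pass the threshold in any alternative: without DMSO 3 it was 0.28, with an edgeR adjusted p of 0.0493. In that alternative 55 of all genes tested passed, against 19 with all 9 libraries. DMSO 3 held the highest DMSO value of NDUFB10, so leaving it out raises the fold change. NDUFA8 was lower in every AGB1 library, at 72.7, 75.1 and 74.7 CPM, against 82.4, 78.7 and 84.7 CPM in DMSO, with a fold change of −0.14 (−0.28 to −0.01, adjusted p = 0.604). The other gene lower throughout was NDUFS1, the iron-sulfur core subunit, at −0.06 (adjusted p = 0.857).

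**Figure D3:**
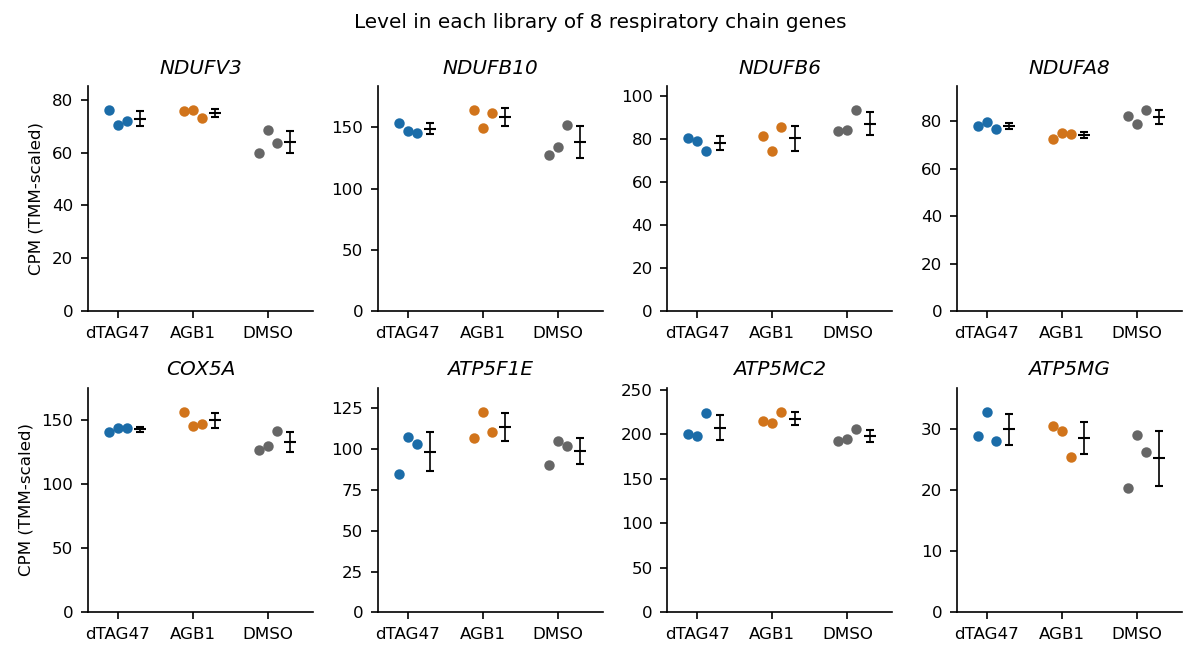
Level in CPM of 8 subunit genes in every library (points), with the mean and SD of 3 libraries beside them, in the order dTAG47, AGB1, DMSO; each axis starts at 0. NDUFV3 lies higher in both treated groups than in DMSO, with log2 fold changes of 0.19 and 0.23, and the groups of ATP5MG overlap.

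Complex II is the one complex with no subunit from the mitochondrial genome, and all 4 of its genes were measured with intervals inside ±0.5. For SDHA, the flavoprotein, the log2 fold change was 0.0021 under dTAG47 and 0.03 under AGB1. SDHB had 0.05 under dTAG47 and 0.01 under AGB1, and SDHD, a membrane anchor with the promoter printed above, −0.05 and −0.04. SDHD was at 69.0, 76.1 and 75.7 CPM with dTAG47, 73.0, 73.8 and 74.3 CPM with AGB1 and 69.6, 81.9 and 76.3 CPM in DMSO, so that the DMSO libraries reached above and the dTAG47 libraries below all others. SDHC was at 197, 199.6 and 204 CPM with AGB1, against 190.5, 195 and 190.4 CPM in DMSO, so that the groups did not overlap at a fold change of 0.06 (adjusted p = 0.843). ATP5IF1, which inhibits ATP hydrolysis by the synthase, was at 175, 156 and 152 CPM with dTAG47, 162, 155 and 167 CPM with AGB1 and 134, 153 and 178 CPM in DMSO. Its DMSO libraries spanned both treated groups.

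Set directly against each other, dTAG47 gave lower values than AGB1 in most subunit genes. The median log2 difference was −0.05, and 19 of 82 genes (23.2%) were above 0, where 50.04% of all genes were. Complex medians were −0.04 for complex I, −0.01 for complex II, −0.07 for complex III, −0.07 for complex IV and −0.05 for complex V. No subunit gene passed the threshold, where 0% of all 18319 genes did; at an unadjusted p under 0.05 there were 0 higher, where 2.25% of all genes were, and 4 lower (NDUFA3, COX7B, ATP5F1C and ATP5F1E), where 1.77% were; in either direction it was 4.02%. In 12 genes every dTAG47 library was below every AGB1 library, where 5.10% of all genes were, and in 1, NDUFA8, every one was above, where 5.35% were.

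The 12 genes were NDUFA3, NDUFA10, NDUFS3 and NDUFS4 of complex I, UQCRH and UQCRFS1 of complex III, COX5A and COX6A1 of complex IV, and ATP5F1A, ATP5F1C, ATP5MC3 and ATP5PF of complex V. NDUFA3, an accessory subunit, was at 33.7, 34.5 and 27.3 CPM with dTAG47, against 35.5, 37.4 and 38.7 CPM with AGB1, a log2 difference of −0.22 (95% interval −0.42 to −0.02, edgeR adjusted p = 0.999). ATP5F1C, the rotating gamma subunit, was at 184, 195 and 192 CPM with dTAG47, against 215, 216 and 202 CPM with AGB1, a difference of −0.15 (−0.27 to −0.03, adjusted p = 0.999). UQCRFS1, the Rieske iron-sulfur protein, was at 126, 138 and 138 CPM with dTAG47, against 143, 139 and 140 CPM with AGB1, a difference of −0.07 (adjusted p = 0.999). ATP5F1E (−0.20) and COX7B (−0.16) had overlapping libraries. Without dTAG47 3 the difference of NDUFA3 was −0.13, and without dTAG47 1 that of ATP5F1E was −0.11 and that of COX7B −0.08.

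UQCRH was at 175, 177 and 186 CPM with dTAG47, 191, 189.8 and 189.7 CPM with AGB1 and 179, 183 and 190.4 CPM in DMSO, and the difference between the compounds was −0.08. ATP5MC3 was at 322, 319 and 294 CPM with dTAG47, 328, 326 and 332 CPM with AGB1 and 294, 313 and 332 CPM in DMSO, a difference of −0.08. ATP5PF, coupling factor 6 of the stator, was at 81.9, 83.5 and 76.5 CPM with dTAG47, 85.3, 85.4 and 90.0 CPM with AGB1 and 76.0, 86.9 and 81.96 CPM in DMSO, a difference of −0.11. The DMSO libraries of all 3 genes overlapped both compounds. The values of ATP5F1A, the catalytic alpha subunit, and COX6A1 were −0.06 each, and those of NDUFA10 and NDUFS4 −0.09 and −0.13. ATP5F1B, the most abundant of the subunit mRNAs, was at 1259, 1362 and 1301 CPM with dTAG47, against 1410, 1374 and 1347 CPM with AGB1, and here the libraries overlapped. On the positive side, among genes averaging at least 5 CPM, NDUFS7 had the highest value of complex I, 0.18 (0.09 without dTAG47 1), and ATP5F1D, the delta subunit, that of complex V, 0.08. NDUFA4L2, below that level, had 0.19 (95% interval −0.53 to 0.92).

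**Figure D4:**
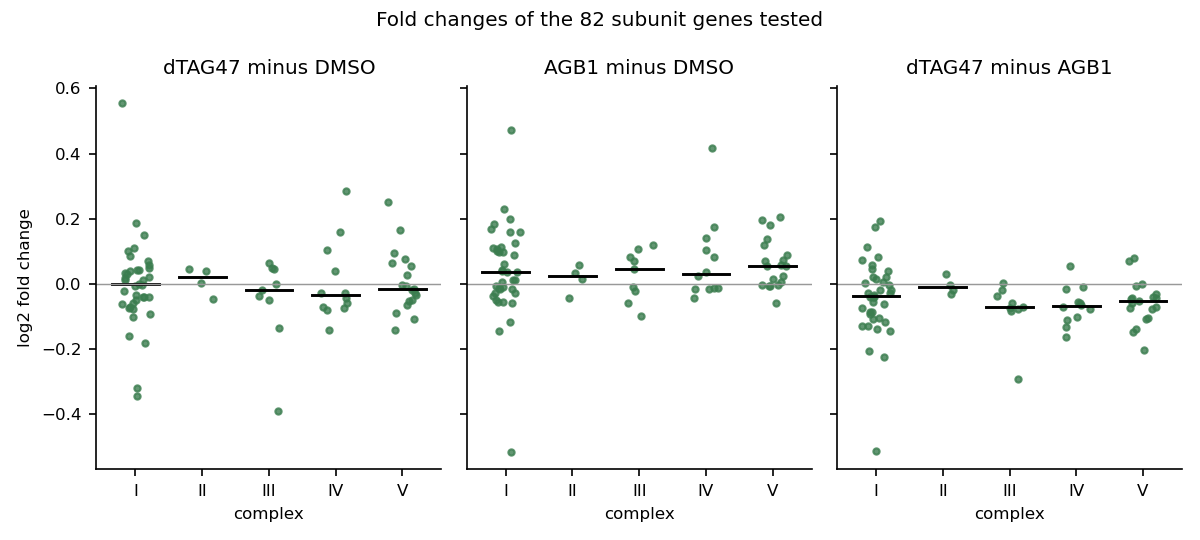
Log2 fold changes of the 82 tested subunit genes by complex in 3 panels (dTAG47 minus DMSO on the left, AGB1 minus DMSO in the middle and the direct contrast of the compounds on the right); points are genes and bars the medians of a complex. The medians lie between −0.04 and 0.02, between 0.02 and 0.06, and between −0.07 and −0.01, and the widest points are genes with low counts.

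The difference between the compounds kept its sign without each of the 9 libraries in turn, with medians from −0.06 to −0.05, and 14 to 26 genes above 0. Leaving out a DMSO library changes only the filter, the scaling and the spread, so it could hardly turn the sign. On library sizes alone the median was −0.04. In the 41 tested genes at or above the median transcript GC of 47.7% the median difference was −0.04, with 14 above 0. In the 41 below it the median was −0.06, with 5 above 0. For dTAG47 against DMSO the medians of these sets differed in sign, 0.01 with 23 above 0 and −0.04 with 13 above 0. The part of GC content in the difference was not tested. With the GC trend of each library removed, 14 genes were lower in every dTAG47 library and 1 higher. On library sizes alone 10 were lower and 1 higher. The shares over all genes under these settings are not given here, so the counts cannot be set beside them. The library medians of the 82 genes did not overlap, at −0.037, −0.010 and −0.020 in dTAG47 1 to 3 against 0.013, 0.041 and 0.032 in AGB1 1 to 3, while the DMSO libraries, which this difference does not use, spread over both.

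Genes that work with the subunits were followed as 9 lists holding 102 genes, all tested. One gene passed the threshold: MYC, a transcription factor with respiratory genes among its targets, rose with AGB1 by 0.29 on the log2 scale (SE 0.06, edgeR adjusted p = 0.0409). It was at 175, 156 and 163 CPM with dTAG47, 188, 177 and 189 CPM with AGB1 and 142, 156 and 154 CPM in DMSO, and the AGB1 libraries lay above all others. The call was kept in 14 of 22 alternatives, with adjusted p from 0.0016 to 0.294; it was lost on library sizes alone, with the replicate number as a block, and without AGB1 1, AGB1 2, AGB1 3, DMSO 1, DMSO 2 or dTAG47 3. Assembly factors of complexes I to V had 0 calls in any comparison. The assembly factors of complex IV, 25 genes, had medians of 0.01 with dTAG47, 0.0069 with AGB1 and −0.03 between the compounds, and those of complex I, 16 genes, had −0.06, 0.0051 and −0.05. The 18 regulators, MYC among them, had medians of 0.01, −0.01 and 0.0025.

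The 13 subunits of the mitochondrial genome, the partners of these proteins, had a median of −0.02 with dTAG47 and −0.06 with AGB1, and the median between dTAG47 and AGB1 was 0.04, with 10 of 13 above 0, while the nuclear genes had 0.04 with AGB1 and −0.05 between the compounds. None was called. The 3 subunits and carriers that the names leave out were not called either: CYC1 had 0.08 with dTAG47 and 0.06 with AGB1, NDUFAB1, the acyl carrier subunit, 0.03 and 0.15, and CYCS, cytochrome c, 0.04 and 0.10. Coenzyme Q synthesis genes (11) had medians of −0.03, 0.03 and −0.06 in the 3 comparisons. Among list genes averaging at least 5 CPM, the extremes were UQCC3, a complex III assembly factor, with 0.23 with dTAG47 and 0.26 between the compounds, NDUFAF5 −0.18 with dTAG47, COQ7 −0.20 with AGB1 and COQ3 −0.26 between the compounds. None of these passed. Genes below 5 CPM, named here after their values were seen, reached further and were not called either: COX20, a complex IV assembly factor, had −0.62 with dTAG47 and −0.62 with AGB1, and ESRRG, a nuclear receptor, had 0.75 with dTAG47 and 0.98 between the compounds.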

How the data were processed

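For each of the 9 libraries the authors deposited unnormalized counts by gene, with the gene's length. HISAT2, DESeq2 and hg38 are named, per the submitters' processing notes. How reads were counted, whether by strand, and with which versions is not stated in those sources. Gene positions in the deposited files equal those of GENCODE 29 for all 58735 genes, and coordinates are therefore in GRCh38. Per the labels' protocols, polyadenylated RNA was captured and copied with random hexamers. Replicate numbers come from the titles.

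The test was that of edgeR 4.0.16 (R 4.3.3): filterByExpr by group, TMM scaling, 1 quasi-likelihood model over all 9 libraries with a coefficient per group, and Benjamini-Hochberg adjustment over the 18319 genes tested, with a threshold of 0.05. Levels are TMM-scaled CPM. The fit and the removal of the GC trend were run on counts simulated from the fitted model. Such a run checks the code and cannot show how well the model suits these data. Pairs of libraries within a group differed by more than sampling noise, with a chi-square over its degrees of freedom of 5.98 to 15.8. Counting limits cover counting error only, since the labels mention no molecular identifiers.

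Alternatives were DESeq2 1.42.0, limma-voom (limma 3.58.1), 3 other scalings, 3 other choices of genes, only the 2 groups compared, lowess removal of the GC or gene length trend, a block on replicate number, each library left out, and counts summed with the closest copy. Genes named are those past the threshold; per comparison and complex the highest and lowest fold change among genes averaging 5 CPM or more; the highest and lowest level per kilobase; isoform sets; up to 10 genes per comparison whose groups do not overlap; and the extremes of the pathway lists. UQCRB, NDUFB10, NDUFS1, COX20, ESRRG and the genes of shared sequence are named beyond this rule, after their values were seen. The members and lists were chosen with earlier results of these data known.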

Additional observations from a re-analysis of the deposited data

How the results depend on the processing

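Of 5445 fold changes of the 82 tested subunit genes recomputed under alternatives, 5368 stayed within 1 SE of the reported value, 76 moved further without passing the threshold and 1 passed it (NDUFB10 with AGB1, without DMSO 3); 304 took the other sign without passing. The number of subunit genes past the threshold was 0 throughout, apart from 0 to 1 with AGB1 when single libraries were left out. Medians of the 82 lay between −0.05 and 0.02 with dTAG47, between 0.0086 and 0.07 with AGB1 and between −0.06 and −0.05 between the compounds when single libraries were left out. The dTAG47 median of complex IV ranged from −0.0914 to 0.0055 and that of complex III from −0.0445 to 0.0282. Non-overlapping genes with dTAG47 were 2 lower on library sizes alone, 4 lower with upper-quartile factors, and 2 higher and 0 lower with the GC trend removed; with AGB1, 1 was lower with the GC trend removed. The shares over all genes under these settings are not given here, and the causes were not tested.

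Calls over all genes for dTAG47 and AGB1 were 47 and 67 with DESeq2, 43 and 67 with no count filter (13 between the compounds), 22 and 49 with the GC trend removed, and 18 and 47 with that and the replicate block; dTAG47 had 4 with only the 2 groups compared. Leaving out libraries gave 2 to 20 for dTAG47, 6 to 55 for AGB1 and 0 to 2 between them. Same-numbered libraries did not deviate together (correlations from −0.16 to 0.07), and the highest correlation, 0.26, was between dTAG47 1 and DMSO 3. Weak correlations cannot exclude a shared culture or day, so whether the numbers pair the libraries stays undecided. The replicate block gave 10 and 17 calls and 0 subunit genes. MYC with AGB1 had an adjusted p of 0.0785 under the block and 0.0545 on library sizes alone. Depth limits genes under 5 CPM, where intervals are wide.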

Other observations

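Some mitochondrial genes outside the subunit list were noticed after their values were seen, and none passed the threshold. LRPPRC, which binds and stabilises mitochondrial messenger RNAs, was at 327, 373 and 342 CPM with dTAG47, 340, 362 and 362 CPM with AGB1 and 403, 381 and 379 CPM in DMSO. Both treated groups lay below DMSO, with log2 fold changes of −0.16 (edgeR adjusted p = 0.443) and −0.13 (adjusted p = 0.526). MT-ND3, a complex I subunit of the mitochondrial genome, had 0.17 in both comparisons, which share the DMSO libraries, at 697, 788 and 791 CPM with dTAG47, 789, 744 and 741 CPM with AGB1 and 691, 616 and 716 CPM in DMSO. TFAM, which packages mitochondrial DNA, was below DMSO in every dTAG47 library (−0.13, adjusted p = 0.627).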
